A study of Rattus norvegicus with 8 samples.

Results

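Hspa1a, Hspb1, Dnajb1, Zfand2a and Cryab are genes that heat shock factor 1 (HSF1) is known to switch on under protein stress, and 6 probe sets of these 5 genes were followed on 8 rat brain arrays. They were found as the probe sets whose platform annotation gave a single symbol equal to 1 of the 5 names, among 10412 genes with such a symbol and 15923 rows in all. A probe set is a group of short oligonucleotides that reads 1 transcript, and its signal is given on the linear scale of the deposited table. Zfand2a was picked because its signal was lower with candesartan after stroke, so its values in every comparison that holds stroke arrays are given as a description, with no test. The other 4 were picked as textbook stress-inducible genes, HSF1 binding was not measured, and all 5 were chosen with earlier results of these arrays known.

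All arrays came from male Wistar rats 7 weeks old, and each was hybridised with RNA pooled from 2 rats. The 4 groups were stroke after candesartan (MCAO candesartan), stroke after vehicle (MCAO vehicle), sham surgery after candesartan (sham candesartan) and sham surgery after vehicle (sham vehicle), with 2 independent pools in each. For the stroke model (middle cerebral artery occlusion, MCAO), this artery was blocked on the right side during 90 min, after which blood flow was restored. Candesartan, a blocker of the angiotensin AT1 receptor, was given at 0.1 mg/kg 2 times daily for 5 days before surgery, under the skin where a route was stated, and vehicle rats received 0.9% NaCl under the skin on the same schedule. RNA was taken 2 h after MCAO or sham surgery from a piece of the right hemisphere, which held many cell types. The treatment text of MCAO candesartan pool 2 named no pretreatment, and that pool was placed in its group by its other labels. Nothing in the labels ties a pool of 1 group to a pool of another.

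In unstressed cells HSF1 is held inactive in complexes with chaperones. When misfolded proteins draw these chaperones away, HSF1 forms trimers, binds heat shock elements in promoters and turns on chaperone genes within minutes. In brain, inducible Hsp70 is known as a marker of cells stressed by ischemia. In bulk tissue, fewer cells of a type and less RNA per cell cannot be told apart.

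The heat shock element is built from GAA and TTC units that alternate, so promoters were searched for the 2-unit motifs GAANNTTC and TTCNNGAA, each of which reads the same on both strands. RefSeq promoters of build GRCr8 were at hand for Hspa1a, Hspb1, Dnajb1 and Zfand2a, and the 250 bases before the annotated gene start were searched. Either motif was present in 3 of these 4 windows, and in 4534 of all 33469 windows of the same length (13.5%). The 3 windows with a match are shown 5′ to 3′ on the strand of the gene, with the matches in capitals, because they show where in each window the matches lie. They lie at chr12:26432302-26432551 (minus strand, Hspb1), chr19:41431142-41431391 (minus strand, Dnajb1) and chr12:20275200-20275449 (plus strand, Zfand2a).
Hspb1: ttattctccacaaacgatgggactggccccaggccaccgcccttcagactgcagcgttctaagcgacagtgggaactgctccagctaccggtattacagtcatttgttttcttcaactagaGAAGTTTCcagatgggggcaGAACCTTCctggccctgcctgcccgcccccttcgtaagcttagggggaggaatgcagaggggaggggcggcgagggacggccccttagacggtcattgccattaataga
Dnajb1: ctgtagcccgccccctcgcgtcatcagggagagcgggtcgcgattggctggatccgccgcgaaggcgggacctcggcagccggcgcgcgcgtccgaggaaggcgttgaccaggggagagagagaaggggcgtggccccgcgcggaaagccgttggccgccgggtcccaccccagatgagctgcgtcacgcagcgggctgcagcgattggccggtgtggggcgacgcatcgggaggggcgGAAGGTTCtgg
Zfand2a: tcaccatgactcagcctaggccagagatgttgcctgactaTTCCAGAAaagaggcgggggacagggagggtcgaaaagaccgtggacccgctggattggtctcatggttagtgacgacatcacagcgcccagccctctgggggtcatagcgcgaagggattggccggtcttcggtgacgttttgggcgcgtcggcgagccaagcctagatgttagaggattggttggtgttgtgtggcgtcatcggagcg

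In Hspb1 the matches began 129 and 109 bases before the gene start, in Dnajb1 11 bases and in Zfand2a 210 bases before it. The Hspa1a window held no match to these letters. Longer 3-unit motifs, GAA and TTC in alternation with any 2 bases between the units, were found in 0 of the 4 windows, against 222 of 33469 (0.663%). Among 33 promoter entries of other genes known to be inducible by HSF1, 13 held a 2-unit motif and 5 a 3-unit motif. A match is a description of the sequence and was not measured as a binding site here.

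The arrays had nearly the same trimmed mean as deposited, which differed by at most 0.000426%. MCAO candesartan pool 2 stood apart, with a mean correlation of 0.959 with the other arrays, against 0.976 to 0.978 for each of the other 7. The pools of MCAO candesartan differed by a median of 0.225 on the log2 scale, against 0.125 to 0.155 in the other groups. Of the neuron markers, 9 of 10 were on the array, all 9 passed the signal filter, and the median signal of the 9 was 18023.2 to 19838.5 over the groups. Skeletal muscle markers had a median of 516.5 to 673.8 over 4 genes.

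Tests used limma, fitted over all 8 arrays and 10310 probe sets that passed a filter on low signals, on the scale log2(signal + 369.9). The offset shrinks the differences of dim genes. A probe set was called at a Benjamini-Hochberg adjusted p under 0.05. With 2 pools against 2, the smallest p of an exact two-sided permutation test is 0.333, so the p-values rest on limma's spread shared between probe sets and groups.

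Hspa1a encodes the main stress-inducible Hsp70, a chaperone that binds exposed stretches of unfolded proteins. Its signal was 5793.8 and 14082.2 in the MCAO candesartan pools, 27296.1 and 29810.3 in the MCAO vehicle pools, 1284.2 and 1146.8 in the sham candesartan pools and 1342.7 and 1205.3 in the sham vehicle pools. Both stroke groups lay far above both sham groups, and the MCAO candesartan pools lay between the MCAO vehicle and the sham pools without overlap. The MCAO candesartan pools were also the most uneven, pool 2 reading more than pool 1, with an SD of 5861 around a mean of 9938, against 28553 ± 1778 in MCAO vehicle (n = 2 pools each). The gene has near-identical neighbours in the Hsp70 cluster, and which copy the probes read was not tested. A further probe set annotated to several symbols was not used.

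Hspb1 encodes a small heat shock protein that holds unfolding proteins and protects actin filaments. It read 1273.2 and 887.8 in MCAO candesartan pools, 4591.6 and 3132.9 in MCAO vehicle pools, 733.4 and 742.8 in sham candesartan pools and 633 and 634.4 in sham vehicle pools. The MCAO vehicle pools stood alone at the top, and the MCAO candesartan pools lay just above the sham pools. The probe set passed the filter only through 3 stroke arrays, both of MCAO vehicle and pool 1 of MCAO candesartan, so in these data it could be tested only because it was high there. For stroke in vehicle rats and for the drug after MCAO its adjusted p is given with and without the filter. Its other tests are given with the filter only. It is left out of the counts of members in comparisons that hold stroke arrays, except in the closing section on processing.

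Dnajb1 encodes an Hsp40 co-chaperone that delivers clients to Hsp70 and stimulates its ATPase, and 2 probe sets read it. Probe set 1388722_at gave 3850.2 and 4216 in MCAO candesartan pools, 7094.1 and 7296.1 in MCAO vehicle pools, 2969.9 and 2872.9 in sham candesartan pools and 3562.8 and 3419.8 in sham vehicle pools. Probe set 1383302_at gave 3046.9 and 4085 in MCAO candesartan pools, 6599.7 and 6539.3 in MCAO vehicle pools, 2341 and 2395 in sham candesartan pools and 2668.9 and 3225.9 in sham vehicle pools. In both, MCAO vehicle was the highest group and sham candesartan the lowest, and MCAO candesartan overlapped sham vehicle in 1383302_at but not in 1388722_at.

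Zfand2a encodes AIRAP, a zinc finger protein induced by arsenite that associates with the proteasome. It read 568.4 and 304.9 in MCAO candesartan pools, 2323.5 and 3332.4 in MCAO vehicle pools, 1322.7 and 1341.7 in sham candesartan pools and 1428 and 1225.3 in sham vehicle pools. Here the MCAO candesartan pools were the lowest of all 8, below both sham groups, while the MCAO vehicle pools were the highest. Both MCAO candesartan signals lay below 916.3, the level of the signal filter, and that of pool 2 also below the offset of 369.9. Folds of Zfand2a in this group therefore rest on low signals of 1 probe set. This order differed from that of Hspa1a, Hspb1 and Dnajb1, whose MCAO candesartan pools did not fall below their own sham pools.

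Cryab encodes alpha-B-crystallin, a small heat shock protein of the lens that is also made by glia. Its signal was 7823.9 and 7521.7 in MCAO candesartan pools, 11058.3 and 10630.5 in MCAO vehicle pools, 7696.5 and 7355 in sham candesartan pools and 6546.1 and 7730.4 in sham vehicle pools. Only the MCAO vehicle pools stood apart, and the other 3 groups overlapped.

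**Figure D1:**
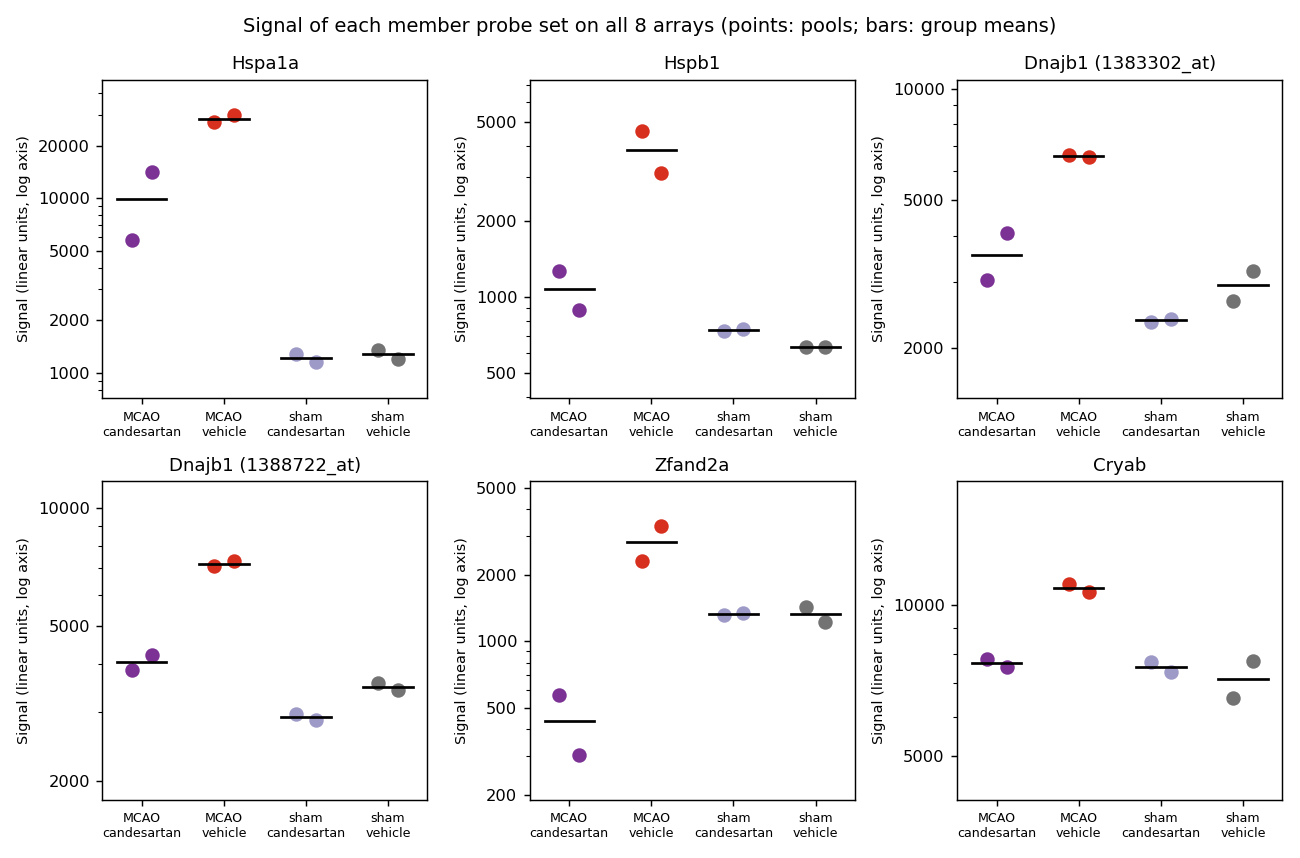
Signal of the 6 probe sets (linear units on a log axis) in each pool, with MCAO candesartan, MCAO vehicle, sham candesartan and sham vehicle from left to right; points are the 2 pools and black bars the group means. MCAO vehicle is the highest group in every panel, and MCAO candesartan reaches 304.9 for Zfand2a, which was chosen for being low there.

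The stroke response without the drug was read from MCAO vehicle against sham vehicle. Hspa1a and both Dnajb1 probe sets rose, so that 3 of the 4 probe sets of Hspa1a, Dnajb1 and Cryab were called higher and 0 lower. Over all 10310 probe sets, 27 (0.262%) were called higher and 0 lower. In each of these 4 probe sets the MCAO vehicle arrays read higher than either sham vehicle array, which was the case for 24.6% of all tested probe sets, while 20.6% had both below. At an unadjusted p under 0.05 all 4 passed, against 7.04% of all. Zfand2a and Hspb1 also had no overlap, but the MCAO vehicle arrays had a part in the choice of Zfand2a and in Hspb1 passing the filter.

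Hspa1a rose by 4.14 ± 0.29 (log2 difference ± SE; adjusted p = 0.000105 by limma), and its MCAO vehicle pools were 21.4 and 23.4 times the sham vehicle mean on the linear scale. This was the 2nd largest difference of the 10310. Hspb1 had a difference of 2.05 ± 0.20 (adjusted p = 0.0014 by limma with the filter and 0.0146 with all probe sets tested), with pools at 7.25 and 4.94 times the sham vehicle mean. With any 1 of the 8 arrays left out, the difference ran from 4.07 to 4.20 for Hspa1a and from 1.80 to 2.31 for Hspb1. These fits kept the filter, which Hspb1 passed only through stroke arrays.

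Dnajb1 rose by 0.97 ± 0.11 in 1388722_at and by 1.07 ± 0.15 in 1383302_at (adjusted p = 0.00491 and 0.0134 by limma), with pools at 2.03 to 2.24 times the sham vehicle mean. Neither Dnajb1 probe set passed when any single 1 of the 4 vehicle arrays was left out (adjusted p between 0.076 and 0.225), although the differences stayed between 0.94 and 1.19. Cryab had a difference of 0.58 ± 0.12 that missed the threshold (adjusted p = 0.113 by limma), with pools at 1.55 and 1.49 times the sham vehicle mean. Cryab passed in 2 of 21 alternatives, with array weights (adjusted p = 0.0163 by limma) and when only the vehicle groups were fitted (0.0343). It missed the threshold in the other 19, and its difference ran from 0.47 to 0.70 over all alternatives. Zfand2a, not tested here, had a difference of 0.90 ± 0.21 and pools at 1.75 and 2.51 times the sham vehicle mean.

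Stroke after candesartan was read from MCAO candesartan against sham candesartan, which share no array with the vehicle comparison. Hspa1a rose, and it was the 1 called higher among the 4 probe sets of Hspa1a, Dnajb1 and Cryab, with 0 lower. Over all tested probe sets, 22 (0.213%) were called higher and 3 (0.0291%) lower. Its rise was 2.58 ± 0.29 (adjusted p = 0.00486 by limma), again the 2nd largest of all. The MCAO candesartan arrays read higher than either sham candesartan array for Hspa1a, Hspb1 and both Dnajb1 probe sets (16.9% of all tested) and lower for Zfand2a (21.4% of all). At an unadjusted p under 0.05, 3 of these 4 passed, against 12.4% of all. The Hspa1a pools were 4.77 and 11.6 times the sham candesartan mean. Without sham candesartan pool 1 or pool 2 the difference was 2.64 and 2.51, short of the threshold (adjusted p = 0.0761 and 0.0919).

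The other members tested gave smaller values that did not pass. Dnajb1 had differences of 0.42 ± 0.11 and 0.51 ± 0.15 in 1388722_at and 1383302_at (adjusted p = 0.23 and 0.249 by limma), with pools at 1.29 to 1.73 times the sham candesartan mean. Without MCAO candesartan pool 1 these were 0.48 and 0.70. Hspb1 had a difference of 0.38 ± 0.20 (adjusted p = 0.479) and Cryab of 0.03 ± 0.12 (adjusted p = 0.949), and the Cryab pools were at 1.04 and 0.999 times the sham candesartan mean. Zfand2a, untested, had a difference of -1.10 ± 0.21, its pools at 0.427 and 0.229 times that mean, both on signals below the filter level.

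Set against the stroke increment in vehicle rats on the linear scale (group mean minus sham mean), the increment in candesartan rats was 32% for Hspa1a, 33.1% and 30% for the Dnajb1 probe sets 1383302_at and 1388722_at, 10.6% for Hspb1 and 3.97% for Cryab. For Zfand2a it had the opposite sign. These shares depended on the MCAO candesartan pool. With pool 1 only and with pool 2 only, the share was 16.8% and 47.2% for Hspa1a, 18.7% and 47.4% for Dnajb1 1383302_at, and 25.1% and 35% for Dnajb1 1388722_at. It was 16.6% and 4.64% for Hspb1, and 8.04% and -0.109% for Cryab. The difference between the stroke effects was tested as an interaction over all 8 arrays, and 0 of the 4 probe sets of Hspa1a, Dnajb1 and Cryab passed, nor did Hspb1, against 2 of 10310 (0.0194%) called higher and 0 lower over the whole array. At an unadjusted p under 0.05 all 4 passed, against 8.87% of all tested probe sets. The interaction was -1.56 ± 0.41 for Hspa1a (adjusted p = 0.458 by limma), -1.68 ± 0.29 for Hspb1 (adjusted p = 0.16), -0.55 ± 0.16 and -0.56 ± 0.21 for Dnajb1 (adjusted p = 0.466 and 0.54) and -0.56 ± 0.17 for Cryab (adjusted p = 0.466). Their 95% intervals ran from -2.47 to -0.65 for Hspa1a, from -2.31 to -1.05 for Hspb1 and from -0.92 to -0.19 for Cryab. Without MCAO candesartan pool 1 and without pool 2 the Hspa1a interaction was -0.95 and -2.18. That of Hspb1 was -1.87 without pool 1. A group with 1 array left adds nothing to the spread, so these fits take that array to vary like the other groups. Zfand2a, untested, gave -2.00 ± 0.29.

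**Figure D2:**
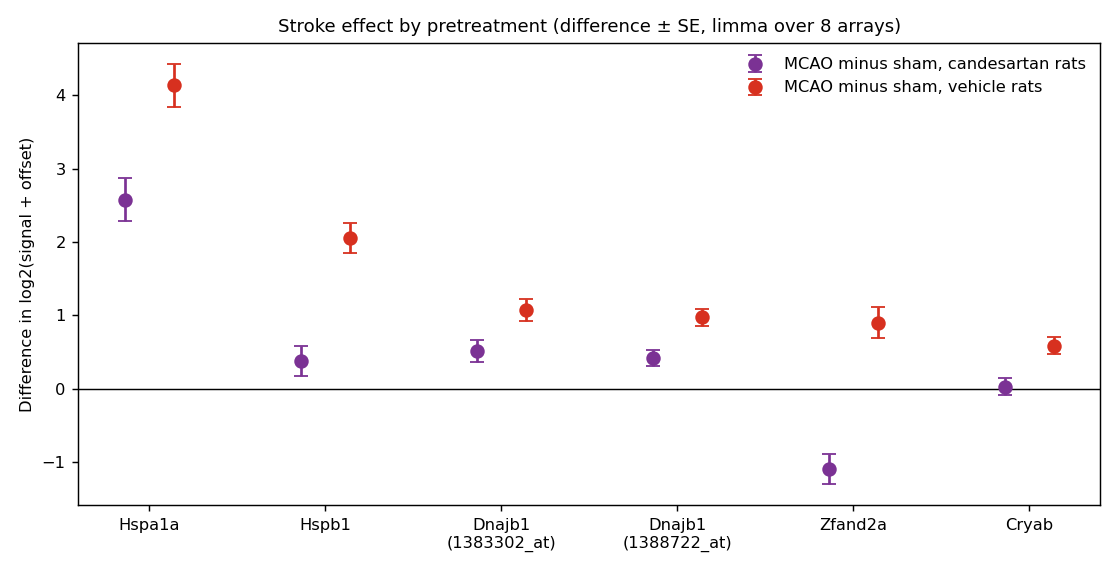
Difference between MCAO and sham in log2(signal + offset) for each member probe set, with candesartan rats left of vehicle rats; points are limma estimates over 8 arrays and bars ± 1 SE. The difference is 2.58 in candesartan rats against 4.14 in vehicle rats for Hspa1a, and for Zfand2a, chosen for its MCAO values, it is -1.10 against 0.90.

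The effect of the drug after stroke compared MCAO candesartan with MCAO vehicle. It shares the MCAO vehicle arrays with the stroke comparison in vehicle rats, so the values of both rest in part on the same pools. Dnajb1 probe set 1388722_at fell, which made 1 of the 4 probe sets of Hspa1a, Dnajb1 and Cryab lower and 0 higher, while 4 of 10310 probe sets (0.0388%) were called lower and 3 (0.0291%) higher, 0.0679% in either direction. Zfand2a was chosen on this comparison and is not among the 4. The members were chosen with earlier results of these arrays known, so nothing is read from the share. For these 4 probe sets the MCAO candesartan pools lay below the MCAO vehicle pools, as they did for 23.8% of all tested probe sets.

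Hspb1 had a difference of -1.54 ± 0.20 (adjusted p = 0.0348 by limma with the filter and 0.134 with all probe sets tested), and its MCAO candesartan mean was 0.28 times the MCAO vehicle mean. It also missed the threshold with an offset of 184.9 (adjusted p = 0.0537) or of 1 (0.0662), with array weights (0.0748) and with only the MCAO groups fitted (0.201), and was past it in 9 of 21 alternatives. The Dnajb1 1388722_at call held in 4 of 21. Dnajb1 fell by 0.78 ± 0.11 in 1388722_at, at an adjusted p = 0.04999 that lay at the threshold, and had a difference of -0.83 ± 0.15 in 1383302_at (adjusted p = 0.103). Their MCAO candesartan means were 0.561 and 0.543 times the MCAO vehicle means. The calls of Hspb1 and Dnajb1 1388722_at were lost without any single array other than MCAO candesartan pool 1, at an adjusted p of up to 0.384 for Hspb1 and 0.602 for Dnajb1, with differences of -1.79 to -1.28 and -0.84 to -0.76. Dnajb1 probe set 1383302_at had differences of -0.64 and -1.02 without MCAO candesartan pool 1 and without pool 2.

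Hspa1a had a difference of -1.61 ± 0.29, the 3rd lowest of all, which missed the threshold (adjusted p = 0.103 by limma). Its MCAO candesartan mean was 0.348 times the MCAO vehicle mean. The Hspa1a difference was -0.9996 without MCAO candesartan pool 1 and -2.23 without pool 2. Cryab had a difference of -0.48 ± 0.12 (adjusted p = 0.239 by limma), and of -0.51 without MCAO candesartan pool 1. Zfand2a had a difference of -1.99 ± 0.21, the lowest of the 10310, with a mean of 0.154 times that of MCAO vehicle. The gene was picked for being low in this comparison, so its rank and SE are a description with no test. Its MCAO candesartan signals lay below the filter level, and the difference changed with the offset. Between pools of MCAO candesartan, Zfand2a, Hspb1 and Cryab were lower in pool 2, the array that stood apart, and Hspa1a and both Dnajb1 probe sets were higher in it. The part of that array's deviation in these values was not tested beyond leaving it out.

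**Figure D3:**
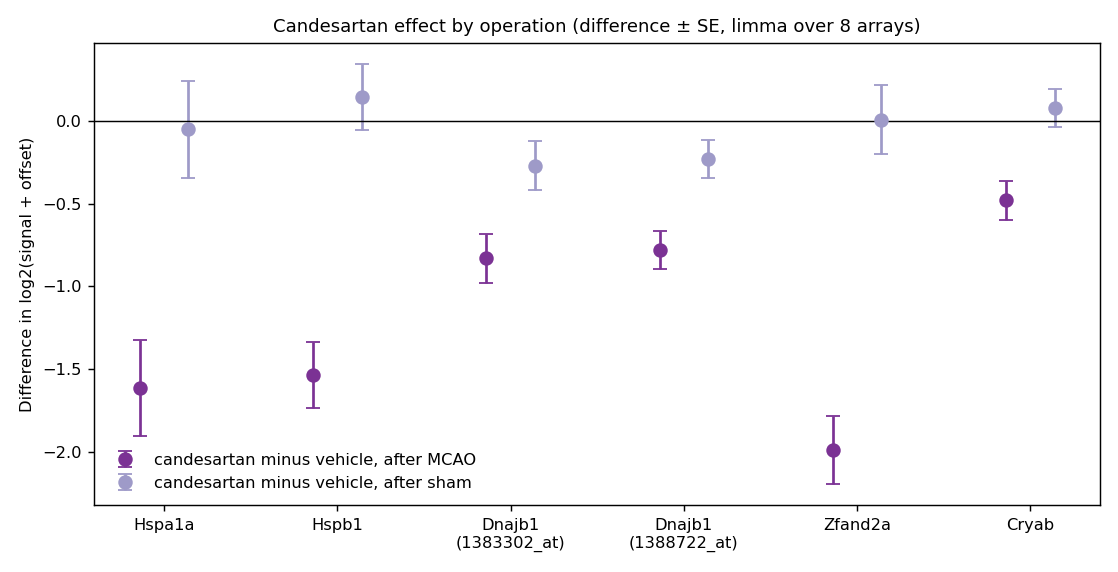
Difference between candesartan and vehicle in log2(signal + offset) for each member probe set, after MCAO (left point of each pair) and after sham surgery (right point); bars are ± 1 SE from limma. After MCAO the differences run from -1.99 (Zfand2a) to -0.48 (Cryab), and after sham from -0.27 to 0.14.

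After sham surgery, candesartan left 0 of 6 member probe sets called, and all 6 could be tested because no sham array had been used to pick Zfand2a. Over all 10310 probe sets 0 (0%) were called by limma, and 3.92% passed an unadjusted p under 0.05, as 0 of the members did. The differences were -0.05 ± 0.29 for Hspa1a, 0.14 ± 0.20 for Hspb1, 0.01 ± 0.21 for Zfand2a and 0.08 ± 0.12 for Cryab, each at an adjusted p = 0.9997. The 95% interval of the Zfand2a difference ran from -0.45 to 0.47 and that of Hspa1a from -0.70 to 0.59. Both Dnajb1 probe sets had sham candesartan pools below the sham vehicle pools (14.9% of all tested) and Hspb1 had them above (18.9% of all), and the Dnajb1 probe sets gave differences of -0.23 ± 0.11 and -0.27 ± 0.15 (unadjusted p = 0.0705 and 0.0968 by limma, adjusted p = 0.9997). The signs of the Hspa1a, Zfand2a and Cryab differences changed when single arrays were left out, and that of Zfand2a also with other scalings between arrays.

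Hsf1 and its regulators, 4 of 6 of which were tested, did not pass in any of the 5 comparisons. At most 0.262% of all tested probe sets passed in any of them. Hsf1 read 1192.8 and 1180.7 in MCAO candesartan pools, 1625.2 and 1445.2 in MCAO vehicle pools, 1315.7 and 1326.2 in sham candesartan pools and 1335.7 and 1078.3 in sham vehicle pools. Its transcript was highest in MCAO vehicle, with a difference of 0.28 from sham vehicle (adjusted p = 0.781 by limma) and of -0.29 between MCAO candesartan and MCAO vehicle (adjusted p = 0.447). Hsf2, a related factor, had differences of 0.03 and 0.15 between MCAO and sham in candesartan and in vehicle rats (adjusted p = 0.973 and 0.947). Hsbp1, a small protein that binds HSF1 trimers, had differences of 0.13 and -0.07, and the cyclophilin gene Ppid of -0.21 and 0.23 (adjusted p between 0.625 and 0.956). HSF1 is controlled mainly at the protein level, which arrays do not read.

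Of 38 other genes known to be inducible by HSF1 or to work beside it, 28 were tested, and 0 were called in any of the 5 comparisons. Over all tested probe sets at most 0.262% were called in any comparison, so 0 of 28 lies near the share of the whole array. Between MCAO and sham in candesartan rats 20 of the 28 had a difference above 0, with a median of 0.13 against -0.03 over all tested probe sets. In vehicle rats 18 of 28 did, with a median of 0.07 against 0.01. For candesartan against vehicle after MCAO the counts above and below 0 were 14 and 14, with a median of -0.01 against -0.03.

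Ier5, an immediate early gene whose protein is known to activate HSF1, came nearest to the threshold in vehicle rats. It read 4905.5 and 5136.8 in MCAO candesartan pools, 5567.4 and 5873.9 in MCAO vehicle pools, 3551.8 and 3730.7 in sham candesartan pools and 3243.8 and 3689.8 in sham vehicle pools, with a stroke difference of 0.43 in candesartan rats (adjusted p = 0.231) and 0.67 in vehicle rats (adjusted p = 0.0598 by limma). The stroke arrays lay above the sham arrays under both pretreatments.

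Hmox1, the haem-degrading enzyme of the oxidative stress response, read 796.8 and 1240.7 in MCAO candesartan pools, 1946.6 and 2078.1 in MCAO vehicle pools, 983.8 and 1061.3 in sham candesartan pools and 785 and 986.8 in sham vehicle pools. Its differences were -0.02 and 0.93 between MCAO and sham in candesartan and in vehicle rats (adjusted p = 0.117 in vehicle rats) and -0.80 between candesartan and vehicle after MCAO (adjusted p = 0.222). Bag3, a co-chaperone that links Hsp70 to autophagy, had stroke differences of 0.02 in candesartan and 0.70 in vehicle rats (adjusted p = 0.235) and a drug difference after MCAO of -0.49 (adjusted p = 0.288). In both genes the MCAO vehicle pools were the 2 highest of 8, and the share of all probe sets in this order was not counted. MCAO vehicle pools lay above both sham vehicle pools in 24.6% of all tested probe sets, and above both MCAO candesartan pools in 23.8%.

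Other chaperones of the list gave mixed values. Hsp90ab1, the steady Hsp90 of the cytosol, had stroke differences of 0.37 in candesartan and -0.08 in vehicle rats and a drug difference after MCAO of 0.36 (adjusted p = 0.313). It read 62889.7 in MCAO candesartan pool 2, the array that stood apart, and 47472.7 in pool 1, against 41095.5 to 45856 on the other arrays. Hsph1, an Hsp110 that recharges Hsp70, had stroke differences of 0.24 and 0.40, and Dnajb4, a relative of Dnajb1, of 0.39 and 0.49 in candesartan and vehicle rats (adjusted p = 0.27 and 0.23 for Dnajb4).

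**Figure D4:**
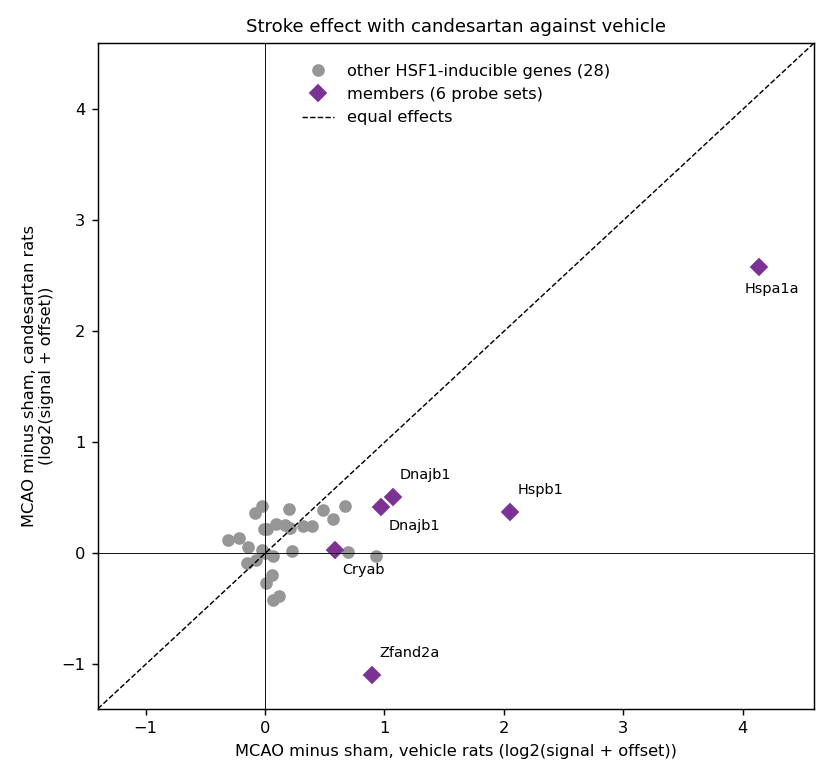
Difference between MCAO and sham in candesartan rats (vertical axis) against that in vehicle rats (horizontal axis), both in log2(signal + offset), for 28 other HSF1-inducible genes (grey) and the 6 member probe sets (purple); the dashed line marks equal effects. Hspa1a lies at 2.58 against 4.14, and the grey points have medians of 0.13 and 0.07; Zfand2a was chosen for its MCAO values, so its place is a description.

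Among relatives of the members, 0 were called in any comparison, against at most 0.262% of all tested probe sets. The small heat shock protein genes Hspb6, Hspb7, Hspb8 and Cryaa had stroke differences in candesartan rats of 0.41, -0.26, -0.42 and -0.29, and in vehicle rats of -0.18, 0.22, 0.07 and 0.72 (adjusted p between 0.274 and 0.968). Hspb2 and Hspb3 lay below the filter. The other Zfand genes tested, Zfand2b, Zfand3, Zfand5 and Zfand6, had differences between candesartan and vehicle after MCAO of -0.14, -0.01, 0.01 and 0.13 (adjusted p between 0.672 and 0.993). Of the other Dnajb genes 5 were tested, with stroke differences in vehicle rats of -0.09 to 0.57.

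Oligodendrocyte and astrocyte markers were set beside Cryab, which both cell types are known to express. The summed signal of 10 oligodendrocyte markers was 294120 and 386083 in MCAO candesartan pools, 272484 and 301927 in MCAO vehicle pools, 296747 and 287776 in sham candesartan pools and 274418 and 274700 in sham vehicle pools. By gene, 8 of the 10 were higher in MCAO vehicle than in sham vehicle, with a median difference of 0.09, and 7 of 10 were lower in MCAO candesartan than in MCAO vehicle, with a median of -0.21. The Cryab values in the same comparisons were 0.58 and -0.48. The high oligodendrocyte sum of MCAO candesartan pool 2, the array that stood apart, rests on Mbp. Mbp read 231193.7 there, against 100814.4 to 122216.7 on the other arrays. The 9 astrocyte markers summed to 158655 and 220273 in MCAO candesartan pools, 166056 and 174491 in MCAO vehicle pools, 196471 and 183822 in sham candesartan pools and 198698 and 201163 in sham vehicle pools, with median differences of -0.18 in vehicle stroke and -0.03 for the drug after MCAO. No marker of either list was at 0 or called, where at most 0.262% of all tested probe sets were called in any comparison. Markers of neurons, endothelium, microglia and macrophages, blood cells and muscle also had 0 calls, with median differences for the drug after MCAO of 0.10, -0.065, -0.18, -0.17 and 0.15. The part of these cells in the Cryab values was not tested.

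The transcripts most like each member were found by the Pearson correlation of log2(signal + 369.9) over the 8 arrays, among 8665 single-symbol probe sets. These values describe arrays that share groups, and they have no p. A like order over the arrays follows from picking genes by correlation. For Hspa1a they were Atf3, a stress-induced transcription factor (r = 0.989), Ier5 (r = 0.967) and Sat1, a polyamine acetyltransferase (r = 0.965). For Dnajb1 they were Ppp1r15a, whose protein restores translation after stress (r = 0.985), Jun (r = 0.966) and Plpp7 (r = 0.964). For Hspb1 they were the immediate early gene Ier3 (r = 0.961), Pisd (r = 0.951) and the growth arrest gene Gadd45b (r = 0.950).

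Ppp1r15a read 1827.1 and 2237.5 in MCAO candesartan pools, 3455.8 and 3748.8 in MCAO vehicle pools, 1604.7 and 1449.2 in sham candesartan pools and 1674.2 and 1524.2 in sham vehicle pools, the same order of stroke groups over sham groups as Dnajb1 probe set 1388722_at. For Cryab the nearest were Nfe2l2, the transcription factor of the antioxidant response (r = 0.983), Ier3 (r = 0.968) and the lipid droplet gene Plin2 (r = 0.968).

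For Zfand2a the nearest were the dynactin subunit gene Dctn4 (r = 0.968), the actin-bundling gene Pls3 (r = 0.966) and Ccdc50 (r = 0.955). Pls3 read 5484.4 and 5268.8 in MCAO candesartan pools, 8084.9 and 8301.4 in MCAO vehicle pools, 6276.2 and 6745.1 in sham candesartan pools and 7151.5 and 6911.6 in sham vehicle pools. As with Zfand2a, its MCAO candesartan pools were the lowest of the 8 and its MCAO vehicle pools the highest. Pls3 was picked for its correlation with Zfand2a on these arrays, so this likeness is no separate evidence. These 3 genes were not among the 3 nearest of any other member.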

How the data were processed

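Probe set signals were read from the table deposited by the authors, as intensities on a linear scale. The submitters' processing notes name GCOS, software of the array's maker. Its version and its settings are not given in the sources used here. Scaling was kept as deposited. Before taking log2, 369.9 was added to every signal, the value at the 20th percentile. Of 15923 rows, 57 controls were left out, and 10310 probe sets with a signal above 916.3 (40th percentile) on at least 2 of 8 arrays were tested, 8671 of them with a single symbol from the platform annotation. All 4 groups were fitted in 1 limma model (limma 3.58.1, R 4.3.3, eBayes with trend, 4 residual degrees of freedom). Each of 5 contrasts was adjusted by Benjamini-Hochberg over all tested probe sets. The fit was tested on simulated data, in a test whose simulated spreads and pass limit were revised after its earlier version had too many false calls. List genes were represented by their brightest probe set. The members, the lists and the rule for named genes (all members, HSF1 and its regulators, up to 4 list genes with the smallest p per contrast, and the 3 most correlated genes) were chosen with earlier results of these data known. Hsph1 and which nearest genes have their signals printed were chosen after their values were seen. Pools were separate animals per the labels, which number them 1 and 2 in each group. Alternatives covered the scaling, the offset, the filter, the variance model, array weights, the groups fitted, the pool number as a block and each array left out. Depth does not apply to arrays, and their number limits the precision.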

Additional observations from a re-analysis of the deposited data

Results flagged for a closer look

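Zfand2a moved in opposite directions in all pools. Both MCAO candesartan pools lay below both sham candesartan pools, and both MCAO vehicle pools lay above both sham vehicle pools, so that the stroke effect with candesartan minus that with vehicle was -2.00 on the log2 scale. Of all tested probe sets, 21.4% had the first of these orders and 24.6% the second. The share with both was not counted. The gene was chosen on MCAO candesartan against MCAO vehicle, and the difference was not tested. Its MCAO candesartan signals lay below the level of the signal filter.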

How the results depend on the processing

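Every alternative was recomputed for 6 member probe sets, giving 624 values, of which 554 kept their direction and their side of the threshold or moved by less than the spread between pools. Counts of members here include Hspb1, which the counts above leave out in comparisons that hold stroke arrays. It passed the filter only through such arrays. Without Hspb1, 1 probe set, Dnajb1 1388722_at, was called lower after MCAO with candesartan. The count of members lower after MCAO with candesartan depended most on the settings. It was 2 and became 1 with median-centred arrays, cyclic loess, no variance trend, a robust fit or the replicate block (pool number as a covariate), and 0 with an offset of 184.9 or of 1, no filter, array weights or only the compared groups fitted. With single arrays left out it ran from 0 to 5, the 5 without MCAO candesartan pool 1. The pool numbers did not pair the arrays (pool 1 minus pool 2 correlated at -0.0951 to 0.137 between groups), and the replicate block ended 1 member's call, Dnajb1 1388722_at after MCAO (adjusted p = 0.0836), and no other. Leaving out arrays gave 2 to 4 members called for stroke in vehicle rats, 0 to 3 for stroke in candesartan rats and 0 to 2 for the interaction. Dnajb1 1383302_at did not pass for stroke in vehicle rats without the filter (adjusted p = 0.0627). Zfand2a after sham was -0.039 with quantile normalization, -0.043 with median-centred arrays and -0.042 with cyclic loess, and -0.079 to 0.094 with arrays left out. Under the same omissions Cryab ran from -0.037 to 0.19 after sham and from -0.0045 to 0.058 for stroke in candesartan rats, and Hspa1a from -0.1149 to 0.0102 after sham, none of them called. Over all tested probe sets the counts of 27, 25, 7 and 2 for stroke with vehicle, stroke with candesartan, the drug after stroke and the interaction ran over 7 to 104, 5 to 835, 0 to 986 and 0 to 296, the highest of the last 3 without MCAO candesartan pool 1. With an offset of 1 the Zfand2a drug difference after MCAO was -2.74, against -1.60 with an offset of 739.8. The cause of these changes was not tested. The number of arrays, 2 per group, limits every test.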
